A study of Homo sapiens with 6 samples.

Results

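Chromatin accessibility was examined at 4 loci of noncoding RNAs that are known from human pluripotent stem cells. They are the miR-302 microRNA cluster, which holds MIR302A and MIR367; a stretch of chromosome 19 with the primate chromosome 19 microRNA cluster (C19MC) and the neighbouring miR-371 cluster, which holds MIR371A, MIR372 and MIR373; the long noncoding RNA gene ESRG; and the long noncoding RNA gene LINC-ROR. Each locus was taken as a window of the hg19 genome: chromosome 4 from 113.55 to 113.59 Mb, chromosome 19 from 54.15 to 54.31 Mb, chromosome 3 from 54.64 to 54.70 Mb and chromosome 18 from 54.70 to 54.76 Mb, respectively. Every open region with its midpoint in a window was a member, which gave 21 regions of the 118556 in the whole table: 4 at the miR-302 cluster, 11 in the chromosome 19 window, 3 at ESRG and 3 at LINC-ROR. The rule used position alone and no measured value, though earlier results of these data were known when it was chosen.

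The cells were WA09, an established human embryonic stem cell line with no engineered allele given in the labels. Sorted cells of 2 populations were compared, GCTM-2highCD9highEPCAMhigh (the high population) and GCTM-2midCD9mid (the mid population, named low in the sample titles), with 3 replicates each. GCTM-2, CD9 and EPCAM are cell surface antigens. The comparison asks how open chromatin in cells with the most of these antigens differs from that in cells intermediate for GCTM-2 and CD9. No EPCAM level is given for the mid population. The assay was FAST-ATAC, which uses the Tn5 transposase to cut accessible DNA and tag it with sequencing adapters, and each value below starts from the number of reads of 1 sample in 1 region. Both populations came from 1 cell line, so the spread between replicates covers that line alone. These were bulk samples, in which fewer cells with an open region and less opening per cell cannot be told apart.

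MicroRNAs are short RNAs that bind messenger RNAs and lower their translation and stability, and they choose their targets mainly through the seed, the bases from 2 to 8 counted from the 5′ end. The miR-302 cluster is among the most abundant microRNA sources in human embryonic stem cells and is used in reprogramming, while the miR-371 cluster is the human counterpart of the mouse miR-290 cluster. C19MC is an imprinted cluster known from placenta and from early human cells. ESRG comes from a human endogenous retrovirus (HERV-H) and LINC-ROR is known as a regulator of reprogramming that can act as a decoy for microRNAs.

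The loci on chromosomes 4 and 19 are linked by sequence, which is why their mature microRNAs are shown here. In the RefSeq annotation of GRCh38.p14, the miR-302 cluster held 5 microRNA genes with 10 different mature microRNAs. The stretch from MIR512-1 to MIR373 held 50 microRNA genes, 46 before MIR371A and 4 from MIR371A on, with 73 different mature microRNAs. Across both loci there were 44 different seeds, and 1 of them, AAGUGCU, was shared by 4 mature microRNAs of the miR-302 cluster and 7 of the chromosome 19 stretch. Of 2370 mature human microRNAs in the table, 12 had this seed, and the remaining one was hsa-miR-302e. The 11 that share it are printed 5′ to 3′ with the seed in capitals.
hsa-miR-302a-3p: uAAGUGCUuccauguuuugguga
hsa-miR-302b-3p: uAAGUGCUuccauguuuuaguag
hsa-miR-302c-3p: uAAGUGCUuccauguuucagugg
hsa-miR-302d-3p: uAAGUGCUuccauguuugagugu
hsa-miR-372-3p: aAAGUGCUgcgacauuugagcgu
hsa-miR-373-3p: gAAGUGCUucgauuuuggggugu
hsa-miR-520a-3p: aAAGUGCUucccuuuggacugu
hsa-miR-520b-3p: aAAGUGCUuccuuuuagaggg
hsa-miR-520c-3p: aAAGUGCUuccuuuuagagggu
hsa-miR-520d-3p: aAAGUGCUucucuuuggugggu
hsa-miR-520e-3p: aAAGUGCUuccuuuuugaggg

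MIR367 and MIR371A lie in the same clusters and carry other seeds, shown the same way for contrast.
hsa-miR-367-3p: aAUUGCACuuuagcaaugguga
hsa-miR-371a-3p: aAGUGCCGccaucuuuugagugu
hsa-miR-371a-5p: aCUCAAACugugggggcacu

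The counts use hg19 and the sequences GRCh38, so no region was placed relative to a gene, exon or start site, and the regions are named here by locus and order along the chromosome (MIR302-1 to MIR302-4, C19-1 to C19-11, ESRG-1 to ESRG-3, ROR-1 to ROR-3). On GRCh38, MIR302A lies on the minus strand within its host gene MIR302CHG, with the mature 3′ arm at chr4:112648186-112648208. The protein-coding genes LARP7 and ZGRF1 have start windows nearby, at chr4:112636893-112637192 (LARP7, plus strand) and chr4:112636860-112637159 (ZGRF1, minus strand). How far LARP7 extends along the cluster was not examined. A region named MIR302 may lie at these starts and not at the microRNAs. MIR371A lies on the plus strand, with its mature 3′ arm at chr19:53787716-53787738, followed by MIR372, MIR373 and the protein-coding gene NLRP12. MIR302CHG had start windows in the RefSeq table at chr4:112650002-112650301 and chr4:112648654-112648953, both on the minus strand and 300 bases long, with most of the bases before the start and the last 50 after it. The first is printed because it is the start window of a locus described here that holds the POU5F1-type octamer ATGCAAAT, given in capitals from base 49.
MIR302CHG start window 1: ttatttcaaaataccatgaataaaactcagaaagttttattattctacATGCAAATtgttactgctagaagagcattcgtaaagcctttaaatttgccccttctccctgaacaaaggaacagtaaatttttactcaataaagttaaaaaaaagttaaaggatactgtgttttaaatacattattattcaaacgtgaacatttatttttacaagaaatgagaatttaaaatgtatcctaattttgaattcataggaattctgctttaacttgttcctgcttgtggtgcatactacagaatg

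The octamer, searched on both strands, was present in 1.77% of 35116 start windows of the same length. The first MIR302CHG window was 28% GC, a value reached or undercut by 0.535% of windows, and held 2 CpG, while the median window was 58.7% GC with 14 CpG. The second was 34.7% GC with 1 CpG and lacked these letters. The SOX motif CATTGTT (both strands, in 3.33% of windows) and the GC box GGGCGG (both strands, in 45%) were in neither MIR302CHG window. The start windows of LARP7 (57.7% and 57.3% GC) and ZGRF1 (57.3% GC) held the GC box. These letters describe the windows and do not show a bound factor.

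All 21 regions had reads in every sample, with at least 19 reads in any 1 sample and 227 to 5458 reads (median 873) over the 6 samples. Regions had been called on reads combined across replicates, so their presence in every library is in part a property of the table. Total counts per library lay between 15486251 and 29025274, and the 21 regions took 0.0203% to 0.0273% of them. Levels are given as CPM, read counts scaled to library size after TMM normalization (edgeR's trimmed mean of M-values), and levels of different loci were compared per kilobase of region. The whole table was fitted with edgeR's quasi-likelihood test, blocked by replicate number, and a region was called when its Benjamini-Hochberg adjusted p over the whole table was under 0.01. Fold changes are log2 of high over mid, so a value below 0 is a higher level in the mid population. Mid replicate 1 stood apart from the other mid libraries at several members, as its values below show, and had the lowest TMM factor (0.917, against 0.991 to 1.05 in the others).

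Accessibility per kilobase was highest at the miR-302 cluster. Over its 4 regions, which cover 9700 bp, it was 10.7, 10.5 and 10.2 CPM per kb in high replicates 1, 2 and 3 and 14.8, 11.3 and 11.1 in mid replicates 1, 2 and 3, a mean of 11.4. Averaged over the 6 samples, MIR302-1 had 17.3 CPM per kb, and MIR302-2, MIR302-3 and MIR302-4 had 11.1, 11.5 and 6.94. ESRG followed with a mean of 6.63 (range 5.68 to 8.26), then the chromosome 19 window with 5.47 (range 3.86 to 7.94) and LINC-ROR with 4.25 (range 3.78 to 4.97). The lowest sample of the miR-302 cluster lay above the highest ESRG sample, whereas ESRG overlapped the chromosome 19 window and the latter overlapped LINC-ROR. The median region of the whole table had 4.43 CPM per kb, but wide regions had more. The median was 9.87 CPM per kb in regions of 2 kb or more and 4.18 in narrower ones. The miR-302 regions, ESRG-1, ESRG-2 and C19-2 are of the wide kind, so levels of loci also reflect region width.

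**Figure D1:**
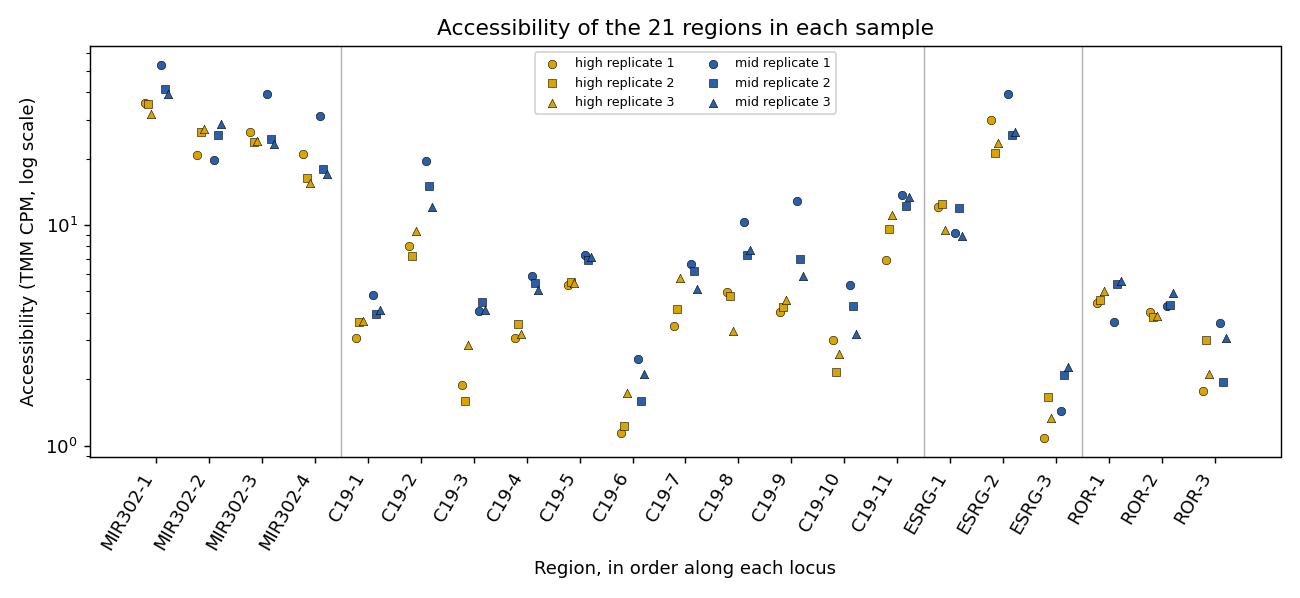
Accessibility of each of the 21 regions (x axis, in order along each locus) in each of the 6 samples, in TMM-normalized CPM on a log scale; yellow points are high samples and blue points mid samples, with the marker shape giving the replicate. The highest points are at MIR302-1 (up to 53.3 CPM in mid replicate 1), and blue points lie above yellow points at most regions from C19-1 to C19-11.

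In the comparison of the populations, no member was called higher in the high population and 4 were called higher in the mid population, all of them in the chromosome 19 window. Of all regions, 2.32% were called higher in the high population and 3.77% higher in the mid population, so 0 of 21 and 19% of the members stand beside those shares. An unadjusted p under 0.05 was found in 12 members and 27.8% of all regions, and an adjusted p under 0.05 in 8 members and 13.1% of all regions, in the same edgeR fit. The fitted change was below 0 in 19 of 21 members and in 46.5% of all regions, with a median of -0.38 in the members and 0.03 over all regions. However, 11 of the members lie on chromosome 19, where 2888 of 3098 regions had a fitted change below 0. In 15 members all 3 same-numbered pairs were lower in the high sample, as in 22.4% of all regions. Every high sample lay below every mid sample in 11 members, an arrangement found in 13% of all regions, and the opposite arrangement, found in 12.9% of all regions, occurred in no member.

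**Figure D2:**
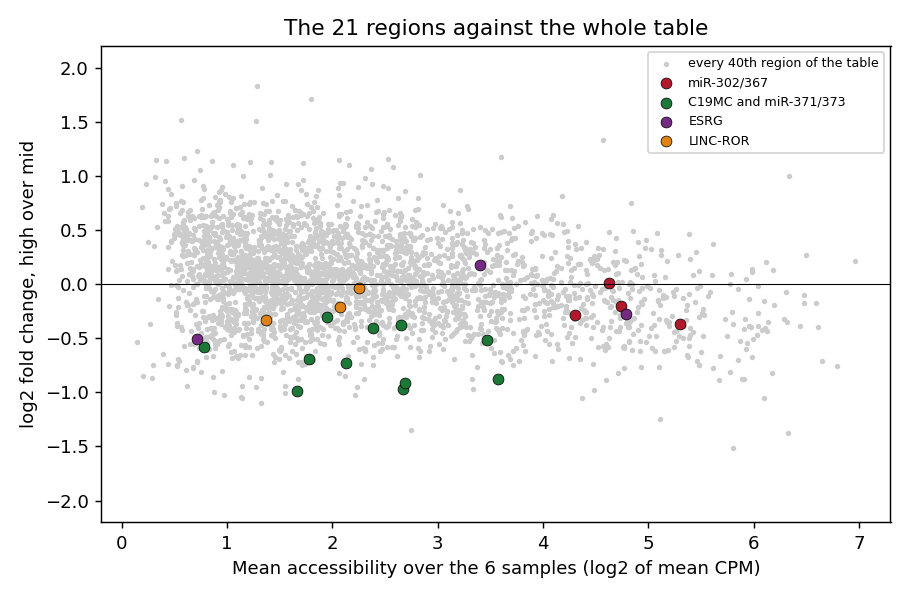
Fitted log2 fold change, high over mid (y axis), against the log2 of mean CPM over the 6 samples (x axis), for the 21 members in colour by locus and for every 40th region of the table in grey. Members of the chromosome 19 window lie between -0.99 and -0.30, and the miR-302 members lie at the right, among regions with many reads.

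The chromosome 19 window carried the called differences. Of its 11 regions, 4 were called higher in the mid population, none higher in the high population, and all 11 had a fitted change below 0, with a median of -0.69. In 9 of them (81.8%) every high sample lay below every mid sample, and in 10 (90.9%) all 3 pairs were lower in the high sample. The same held for 54.2% and 67% of all chromosome 19 regions and for 58% and 69.6% of the regions within 500 kb of the window. A fitted change below 0 was found in 2888 of the 3098 chromosome 19 regions and 62 of the 69 regions within 500 kb. The summed level of the window was 45.1, 47.7 and 53.7 CPM in high replicates 1, 2 and 3 and 92.7, 74.3 and 69.9 CPM in mid replicates 1, 2 and 3. The populations were separate, at 48.8 ± 4.4 CPM and 79 ± 12.1 CPM (SD, n = 3 each), a log2 difference of -0.69, and the pairs differed by -1.04, -0.64 and -0.38.

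The regions of this window stood in 2 groups along the chromosome, with 76198 bp between C19-4 and C19-5 in which the table has no region. C19-2 (chr19:54163342-54165542, 2201 bp) had the highest level of the window, with 8.05, 7.26 and 9.41 CPM in the high samples and 19.5, 15 and 12.1 CPM in the mid samples. Every mid sample exceeded every high sample. The change was -0.88 (standard error 0.17, adjusted p = 0.00022 by edgeR). C19-3 (chr19:54169456-54170132, 677 bp) held fewer reads and had the largest change of all members. It had 1.88, 1.6 and 2.85 CPM in the high samples and 4.06, 4.46 and 4.10 CPM in the mid samples, which were separate. The change was -0.99 (standard error 0.23, adjusted p = 0.00239 by edgeR), with pairs at -1.07, -1.43 and -0.51.

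The other called regions were in the second group. C19-8 (chr19:54275811-54277189, 1379 bp) had 4.96, 4.74 and 3.30 CPM in the high samples and 10.3, 7.31 and 7.70 CPM in the mid samples. Here too the populations did not overlap. The change was -0.97 (standard error 0.19, adjusted p = 0.000244 by edgeR). C19-9 (chr19:54285594-54286623, 1030 bp) had 4.05, 4.24 and 4.59 CPM in the high samples and 12.8, 7.01 and 5.86 CPM in the mid samples. The high samples were close together, and mid replicate 1 lay well above the other mid samples. The change was -0.91 (standard error 0.20, adjusted p = 0.00125 by edgeR), with pairs at -1.64, -0.71 and -0.35. Without mid replicate 1 the value was -0.53, and without replicate 1 of either or both populations C19-9 was no longer called while the other 3 were. Without the replicate 2 pair only C19-8 was called, although C19-2 (-0.81), C19-3 (-0.79) and C19-9 (-1) kept their direction. With no replicate block in the edgeR fit only C19-2 was called, with C19-3 at -0.96, C19-8 at -0.98 and C19-9 at -0.99.

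C19-11 (chr19:54295820-54296993) had the highest level per kilobase of the window, 9.48 CPM per kb. Its high samples had 6.96, 9.54 and 11.1 CPM and its mid samples 13.6, 12.2 and 13.4 CPM, without overlap, and the change of -0.52 had an adjusted p of 0.0309 in edgeR. C19-1 (chr19:54162211-54163072) had the value nearest 0, with 3.08, 3.63 and 3.67 CPM against 4.81, 3.94 and 4.10 CPM, a value of -0.30 with an adjusted p of 0.352 in edgeR. Of the remaining regions, C19-4 was closest to the threshold (-0.73, adjusted p = 0.0105 by edgeR). C19-5, C19-6, C19-7 and C19-10 had values from -0.69 to -0.38 with adjusted p from 0.0274 to 0.203 in edgeR.

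Levels on chromosome 19 as a whole were also lower in the high population. Of its 3098 regions, 959 (31%) were called higher in the mid population and 2 higher in the high population, and their median change was -0.47. Within 500 kb on either side of the window, 23 of 69 regions (33.3%) were called higher in the mid population, with a median of -0.52, beside the 36.4% and -0.69 of the window itself. As a share of the reads in those flanking regions, the window had 4.48%, 4.89% and 5.24% in the high samples and 5.61%, 4.86% and 4.87% in the mid samples. These shares overlapped, with a log2 difference of -0.07 (two-sided exact permutation p = 0.6). Against all regions of the chromosome the difference was -0.08 (exact permutation p = 0.5). The tests of these ratios were chosen after the data were examined, and 8 were made over the 4 loci.

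**Figure D3:**
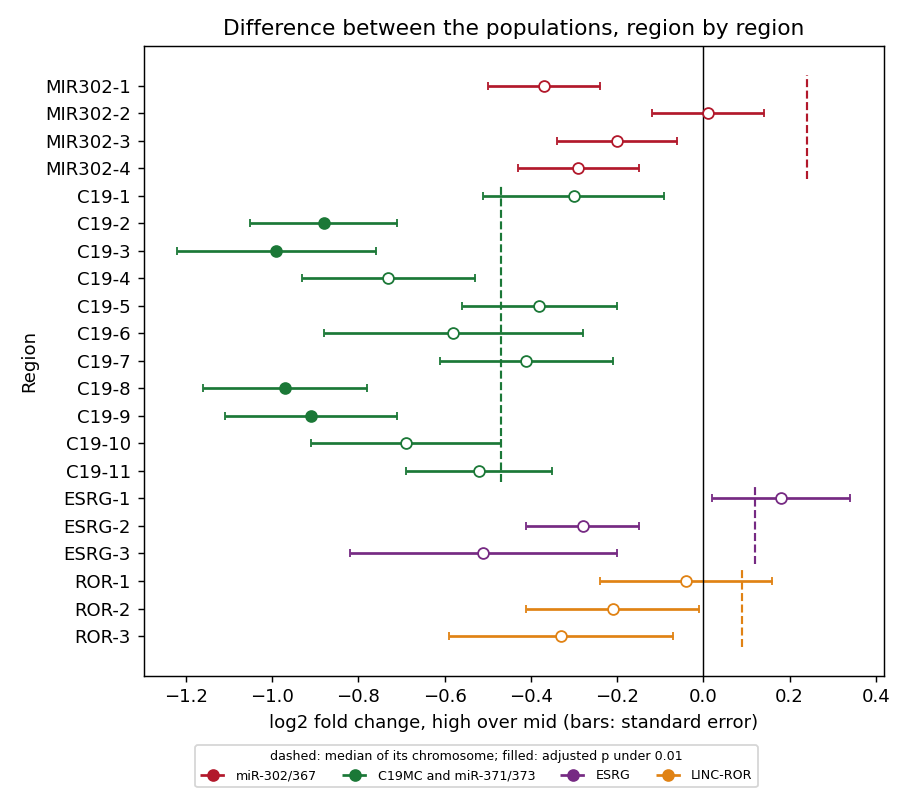
Fitted log2 fold change, high over mid, of each member (points, with bars of 1 standard error; filled points have an adjusted p under 0.01), beside the median of all regions of its chromosome (dashed lines). The filled points are C19-2, C19-3, C19-8 and C19-9, and the dashed line of chromosome 19 stands at -0.47, to the left of those of chromosomes 4 (0.24), 3 (0.12) and 18 (0.09).

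When each sample was scaled within its chromosome or among its neighbouring regions, alternatives added after the data were examined, none of the 4 calls remained. With offsets per chromosome C19-2 was at -0.39, C19-3 at -0.51, C19-8 at -0.48 and C19-9 at -0.42, with adjusted p from 0.0917 to 0.155 in edgeR. With offsets from neighbouring regions the adjusted p of the same regions lay between 0.102 and 0.192. In either case 8 of the 11 regions stayed below 0 and C19-1, C19-5 and C19-7 moved above it, and the median was -0.20 or -0.18. Why the chromosome differs between the populations was not tested.

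At the miR-302 cluster no region was called, and 3 of 4 had a fitted change below 0, with a median of -0.24. All 4 are over 2 kb wide, and 10135 of the 14039 regions of 2 kb or more had a fitted change below 0. The summed level of the cluster was 104, 102 and 98.5 CPM in the high samples and 143, 109 and 108 CPM in the mid samples. The populations did not overlap, at 101 ± 2.6 CPM and 120 ± 19.8 CPM (SD, n = 3 each), and mid replicate 1 was far above the other mid samples. The log2 difference was -0.24, and -0.12 without the replicate 1 pair.

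MIR302-1 (chr4:113557286-113559566, 2281 bp) had the highest level of all members, 17.3 CPM per kb, with a mean CPM above that of 96.7% of all regions. Its place relative to the genes was not determined directly, as no position was converted between builds. The centre of MIR302-3 lies 11.18 kb farther along. On GRCh38 the 3′ arm of miR-302a begins at chr4:112648186 and the first LARP7 start window at chr4:112636893. By this spacing MIR302-1 would lie at the LARP7 and ZGRF1 starts if MIR302-3 holds the microRNAs. MIR302-1 had 35.7, 35.3 and 32.0 CPM in the high samples and 53.3, 41.2 and 39.2 CPM in the mid samples. Every mid sample was above every high sample, an arrangement found in 41.1% of all regions of 2 kb or more. The change was -0.37 (standard error 0.13), and its adjusted p of 0.0431 in edgeR did not reach the threshold. MIR302-2 (chr4:113565621-113567852) lies about 8.31 kb farther along and gave a different picture. It had 20.7, 26.5 and 27.1 CPM in the high samples and 19.7, 25.6 and 28.6 CPM in the mid samples, which overlapped throughout, and a fitted value of 0.01 (standard error 0.13, adjusted p = 0.97 by edgeR). MIR302-3 and MIR302-4 had values of -0.20 and -0.29 with overlapping populations, and at both mid replicate 1 (39.1 and 31.1 CPM) was above the other 5 samples. Without mid replicate 1 MIR302-3 was at -0.01 and MIR302-4 at -0.14.

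The surroundings of the miR-302 cluster had medians on the other side of 0 from those of the chromosome 19 window. The 7234 regions of chromosome 4 had a median change of 0.24, with 4.84% called higher in the high population and 0.498% higher in the mid population. The 60 regions within 500 kb had a median of 0.08, with none called higher in the mid population and 1 higher in the high population, while 14 had an unadjusted p under 0.05 in the edgeR fit. As a share of the reads in those flanking regions, the cluster had 16.6%, 17.6% and 17.8% in the high samples and 22.3%, 21.5% and 19.9% in the mid samples. The populations were separate, with a log2 difference of -0.29 (exact permutation p = 0.1, the smallest that 3 against 3 allows, and 0.267 adjusted over the 8 ratios). Against all regions of chromosome 4 the difference was -0.39 with the same p-values.

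Calls in the miR-302 cluster depended on the scaling. With offsets per chromosome MIR302-1 was called higher in the mid population (-0.59, adjusted p = 0.00076 by edgeR), and with offsets from neighbouring regions MIR302-1 (-0.57, adjusted p = 5.21e-05) and MIR302-4 (-0.49, adjusted p = 0.00437) were called in edgeR. Of all regions, these 2 settings called 2.85% and 2.08% higher in the mid population. With loess offsets on average log2 CPM, which remove a trend with read number, MIR302-1 was at -0.15 (adjusted p = 0.4 by edgeR), and with offsets on region width at -0.22 (adjusted p = 0.195 by edgeR). Its 4 regions are wide, each over 2 kb. Of all 14039 regions of 2 kb or more, 20.7% were called higher in the mid population, with a median of -0.22, against 1.49% of the 104517 narrower ones, with a median of 0.07. Among the members, 1 of 7 wide and 3 of 14 narrow regions were called. The part of width and read number in the miR-302 values was not tested.

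**Figure D4:**
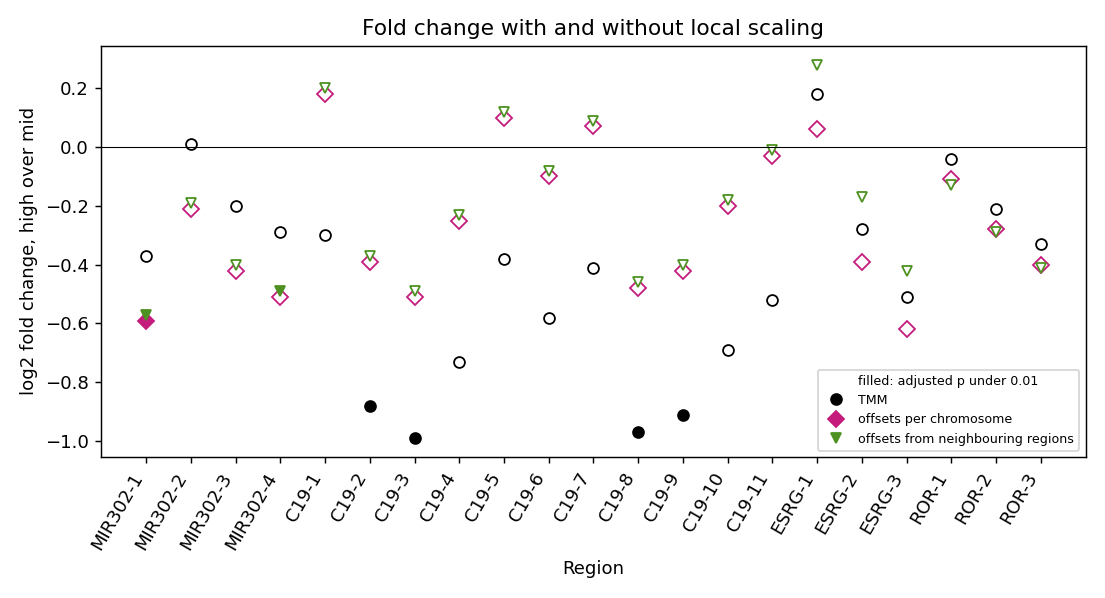
Fitted log2 fold change of each member (high over mid) with TMM (black circles), with offsets per chromosome (magenta diamonds) and with offsets from neighbouring regions (green triangles); filled symbols have an adjusted p under 0.01. With either local scaling the chromosome 19 regions lie nearer 0 and the miR-302 regions farther below 0 than with TMM, and the filled symbols pass from C19-2, C19-3, C19-8 and C19-9 to MIR302-1 and MIR302-4.

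At ESRG none of the 3 regions was called and their directions differed. The summed level was 43.1, 35.3 and 34.2 CPM in the high samples and 49.6, 39.5 and 37.6 CPM in the mid samples, which overlapped. Within each pair the high sample was lower, with log2 differences of -0.20, -0.16 and -0.14. ESRG-2 (chr3:54673188-54676221, 3034 bp), the widest member, had 30.0, 21.2 and 23.4 CPM in the high samples and 39.1, 25.6 and 26.4 CPM in the mid samples. It was lower in the high sample of all 3 pairs although the populations overlapped, with a value of -0.28 (standard error 0.13, adjusted p = 0.158 by edgeR). ESRG-1 (chr3:54662815-54665318) was the single member above 0 by more than its standard error, at 0.18 (standard error 0.16, adjusted p = 0.506 by edgeR), with 12.0, 12.4 and 9.44 CPM against 9.16, 11.9 and 8.93 CPM. ESRG-3 (chr3:54693227-54693702) was the narrowest member at 476 bp and had 1.08, 1.66 and 1.33 CPM against 1.43, 2.08 and 2.26 CPM, a value of -0.51 whose standard error of 0.31 leaves it undetermined (adjusted p = 0.277 by edgeR). ESRG-2 held most of the reads, and without it the summed difference turned from -0.17 to 0.09. The 32 regions within 500 kb had a median of -0.06, and none was called in edgeR (3 with an unadjusted p under 0.05). As a share of the reads in the flanking regions ESRG differed by -0.16 (exact permutation p = 0.5), and as a share of chromosome 3 by -0.22 (exact permutation p = 0.2), on the log2 scale.

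LINC-ROR had the fewest reads, 1592 over 3 regions and 6 samples, and no call. Its summed level was 10.3, 11.4 and 11 CPM in the high samples and 11.5, 11.7 and 13.5 CPM in the mid samples. The populations were separate by a narrow margin, and the log2 difference was -0.17. ROR-1 (chr18:54742802-54743858) had the highest level, with 4.45, 4.55 and 5.04 CPM in the high samples and 3.64, 5.41 and 5.56 CPM in the mid samples, which overlapped, and a value of -0.04 (standard error 0.20, adjusted p = 0.916 by edgeR). ROR-2 had values from 3.81 to 4.05 CPM and from 4.28 to 4.91 CPM, without overlap, and a value of -0.21 (adjusted p = 0.531 by edgeR). ROR-3 (chr18:54759432-54760047) had 1.77, 3.01 and 2.11 CPM against 3.61, 1.95 and 3.07 CPM, and its pairs went both ways (-0.99, 0.61 and -0.52). The 39 regions within 500 kb had a median of 0.21, and as a share of their reads the locus had 2.19%, 2.93% and 3.21% in the high samples and 3.55%, 3.58% and 4.2% in the mid samples. These shares did not overlap (log2 difference -0.46, exact permutation p = 0.1, and 0.267 adjusted over the 8 ratios). Against all regions of chromosome 18 the shares overlapped, with a difference of -0.18 (exact permutation p = 0.3). The fitted values of the 3 regions had standard errors of 0.20 to 0.26.

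**Figure D5:**
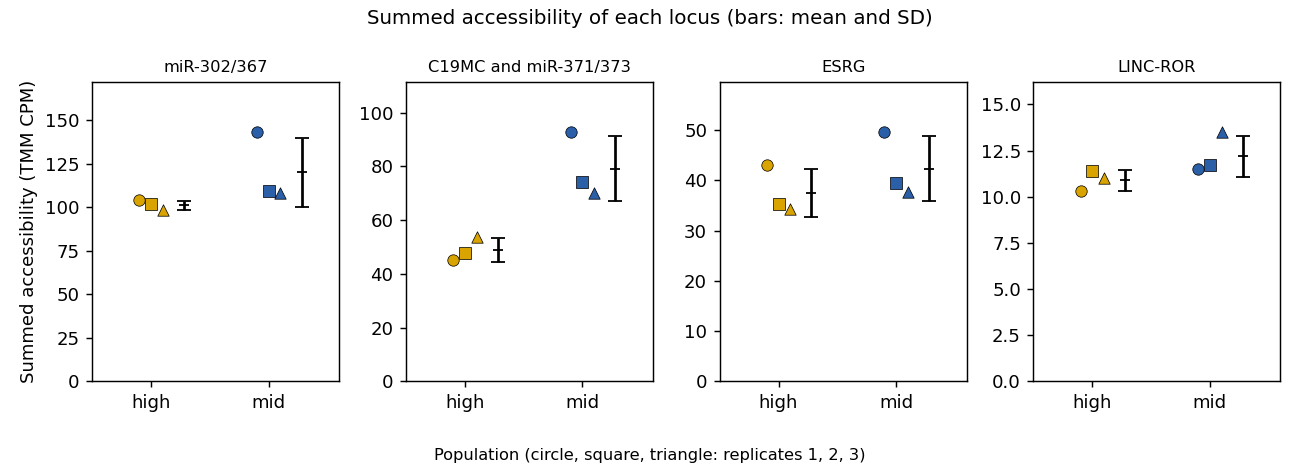
Summed accessibility of the member regions of each locus in TMM-normalized CPM (y axes start at 0 and differ between panels), for the 3 high and 3 mid samples (circle, square and triangle are replicates 1, 2 and 3), with the mean and SD as bars. The populations are separate at the miR-302 cluster, the chromosome 19 window and LINC-ROR and overlap at ESRG, and mid replicate 1 is the highest sample at all loci but LINC-ROR.

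Across the 4 loci the summed level in the high population was 84.9% of that in the mid population at the miR-302 cluster, 62.1% in the chromosome 19 window, 88.9% at ESRG and 89% at LINC-ROR. The exact permutation test gave p = 0.1 for miR-302, the chromosome 19 window and LINC-ROR and p = 0.4 for ESRG, or 0.133 and 0.4 after adjustment over the 4 loci, and this unpaired test of 3 against 3 cannot give a p under 0.1. It does not use the pairs, and in each locus all 3 pairs were lower in the high sample, by as little as -0.04 in pair 2 of LINC-ROR. Among single regions all 3 pairs were lower in 22.4% of the whole table. The share was 52.8% in regions of 2 kb or more and 67% on chromosome 19. The change in the chromosome 19 window was not tested against those of the other loci.

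For each locus the region elsewhere in the table with the most similar pattern over the 6 samples was found among 38916 regions with a mean of at least 6.29 CPM, by the root mean square difference (RMS) of centred log2 CPM. For the chromosome 19 window it lay on the same chromosome (chr19:1478307-1480083, RMS 0.0287, log2 fold change -0.72). For miR-302 it was chr14:74550109-74552497 (RMS 0.024), for ESRG chr10:25009816-25014461 (RMS 0.0181) and for LINC-ROR chr3:133190845-133192398 (RMS 0.0231), with changes from -0.22 to -0.19. The search matched the same 6 sample values, so the likeness of these changes to those of the loci follows from the choice. Among the loci themselves, miR-302 and ESRG were most alike (RMS 0.0951), both with mid replicate 1 at the top, and the chromosome 19 window and LINC-ROR least (RMS 0.325). How close such matches are for other regions was not tested.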

How the data were processed

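Per the labels and the study's methods, reads were trimmed by the authors (Trimmomatic) and mapped to hg19 (BWA, 0.7.15 in the submitters' processing notes), duplicates were removed and reads shifted to the Tn5 cut. Regions came from MACS on pooled replicates, were merged over both populations and cleared of blacklisted ones. The deposited values are raw counts of reads per region and sample, without normalization. Starts are printed 1 higher than deposited.

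Here all 118556 regions were fitted by edgeR 4.0.16 under R 4.3.3 (quasi-likelihood test, TMM, replicate block of 3 levels, no filter, two-sided, called under an adjusted p of 0.01). A standard error is the fitted change divided by the root of its F statistic. DESeq2 1.42.0 and limma 3.58.1 (loess span 0.3) served alternatives, which covered the block, batch, scaling, filters, threshold, window rule and each replicate left out. Same-numbered samples deviated together (r = 0.30, 0.19 and 0.23 across regions, others -0.26 to 0.06), so replicate number was kept as a pairing. No pair of samples agreed within sampling noise. On simulated data for this comparison (118556 regions, 200 changed by a log2 value of 1), 112 of the changed regions were recovered, with 0 false calls.

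The members and comparison sets were chosen with earlier results of these data known. Regions named with their values were, per locus, those with the highest CPM, the highest CPM per kb, the largest and the smallest fitted change, and every called one. MicroRNA and start sequences and gene order are RefSeq on GRCh38.p14, and no position was converted between builds.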

Additional observations from a re-analysis of the deposited data

How the results depend on the processing

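No setting tried gave a member called higher in the high population, while 0.236% to 6.03% of all regions were so called. The 4 members called higher in the mid population became 1 (C19-2) with no replicate block, 2 with the DESeq2 Wald test and 8 at an adjusted p under 0.05. None of the 4 was called with either local scaling. Offsets per chromosome gave 1 other call (MIR302-1) and offsets from neighbouring regions 2 others (MIR302-1 and MIR302-4). Leaving out a pair or a single sample gave 1 to 4 calls. The lowest count came without replicate 2 of either or both populations, where 1 call (C19-8) was left, and without replicate 1 there were 3. Other settings gave 4 or 5. Over all regions the mid count was 4472 (3.77%), 1312 (1.11%) with no replicate block and 438 (0.369%) without the replicate 2 pair. The share of all regions was 2.67% with the DESeq2 Wald test and 7.08% at an adjusted p under 0.05. It was 2.85% with offsets per chromosome and 2.08% with offsets from neighbouring regions. C19-8 was called in 18 of 21 alternatives, C19-2 in 16, C19-3 in 14 and C19-9 in 11.

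Of 441 fitted changes (21 regions under 21 alternatives), 385 kept their direction and side of the threshold, 25 lost and 7 gained a call, and 24 changed sign, in 5 regions. MIR302-2 was at -0.003 with DESeq2 and with RLE size factors, -0.02 with upper quartile scaling, -0.21 with offsets per chromosome, -0.19 with offsets from neighbouring regions and -0.04 to 0.06 with a replicate left out. ROR-1 was at 0.05 with total counts only and -0.22 to 0.06 with a replicate left out. Offsets per chromosome and from neighbouring regions put C19-1 at 0.18 and 0.20, C19-5 at 0.10 and 0.12, and C19-7 at 0.07 and 0.09. The summed ESRG difference was 0.09 without its region with the most reads. The ratio of the chromosome 19 window to its flank ran from -0.16 to 0.06, and to its chromosome from -0.14 to 0.01, with a pair left out. The cause of these changes was not tested. ESRG-3 and ROR-3, with 227 and 358 reads, had the largest standard errors beside C19-6 (0.31, 0.26 and 0.30), and the part of depth in the missing calls was not tested.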
